A study of Homo sapiens with 70 samples.

Results

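Sorafenib and GW3965 were set against each other in Hep3B, an established human hepatocellular carcinoma line, by subtracting the response to one drug from the response to the other, gene by gene. The cells had received 2 µM sorafenib or 5 µM GW3965 for 24 h, and both responses were measured against the same vehicle (DMSO) group. There were 9 libraries of poly-A RNA in each of these groups and in a further group that received both drugs at these doses, among 70 libraries of the series. The other line, Huh7, contributed 8 libraries labelled DMSO, 8 labelled GW3965 and 9 labelled sorafenib. Whether the libraries of a group are separate cultures is not in the labels, so the p-values may measure technical spread only. All libraries of Hep3B come from 1 cell line, and the values apply to that line.

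Of the 20090 gene symbols, 11533 had a mean log2 CPM (read counts scaled to a common library total) of at least 1 over the GW3965 and sorafenib tables, and these are the genes described. The mean corresponds to 2 CPM, and the other 8557 genes lie below it. A gene that is low in DMSO can pass through its level with 1 drug only, as TRIM50 and MAP1B did with sorafenib. Just inside stood MYL5, with a mean log2 CPM of 1.001 and a direct difference of 1.26, and just outside HSD11B1L, with a mean of 0.998 and a direct difference of 0.56. The files hold the authors' comparison tables and no value of a single library, so levels are given per group as the CPM that a table's mean and fold change imply. The direct difference is the log2 fold change with sorafenib minus that with GW3965. A negative value means a higher level with GW3965. It was tested with an approximate 2-sided normal test on errors recovered from the authors' p-values, and was called at a Benjamini-Hochberg adjusted p under 0.05 over all 11533 genes.

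GW3965 activates LXR alpha and beta, nuclear receptors that sense oxysterols and switch on genes of sterol efflux and of fatty acid synthesis, in part through the transcription factor SREBP-1c. Sorafenib inhibits RAF kinases and several receptor tyrosine kinases, and the ERK pathway below RAF keeps feedback genes such as the DUSP phosphatases and Sproutys expressed. The SREBP factors drive cholesterol and fatty acid synthesis when sterols in the endoplasmic reticulum are low. The integrated stress response is a program in which phosphorylation of eIF2 alpha raises the translation of ATF4, whose targets supply and import amino acids.

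The direct difference was called for 5107 of the 11533 genes (44.3%). Sorafenib gave the higher level for 2219 of them (19.2%) and GW3965 for 2888 (25%). A called difference of at least 2-fold was found for 684 genes (5.93%), 362 higher with sorafenib (3.14%) and 322 higher with GW3965 (2.79%). The median direct difference of all genes was -0.05 and the median standard error 0.14. In the authors' deposited table for GW3965, 841 genes were higher than in DMSO (7.29%) and 442 lower (3.83%). The authors' deposited table for sorafenib called 2657 genes higher (23%) and 3255 lower (28.2%), together 51.3%. The SD of the log2 fold changes over genes was 0.20 with GW3965 and 0.52 with sorafenib, so sorafenib contributed more of the spread in the direct difference. In bulk RNA, fewer cells and less RNA per cell cannot be told apart.

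Both tables called 793 genes at the authors' FDR under 0.05 (6.88%). The drugs moved 374 of these in opposite directions (3.24%) and 419 in the same direction (3.63%). Of the opposite genes, 282 rose with GW3965 and fell with sorafenib (2.45%), and 92 fell with GW3965 and rose with sorafenib (0.798%). Of the genes moved alike, 254 rose with both drugs (2.2%) and 165 fell with both (1.43%). Of the rest, 305 genes rose (2.64%) and 185 fell (1.6%) with GW3965 only, 2311 rose (20%) and 2808 fell (24.3%) with sorafenib only, and 5131 passed in neither table (44.5%). Both responses are measured against the same DMSO libraries, which ties their errors, so these counts are descriptions. The direct difference was called for all 374 opposite genes, and since the same contrasts chose them, nothing is read from that count. Sorafenib gave the larger change of the 2 drugs in 230 of the 282 and in 75 of the 92 opposite genes.

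**Figure D1:**
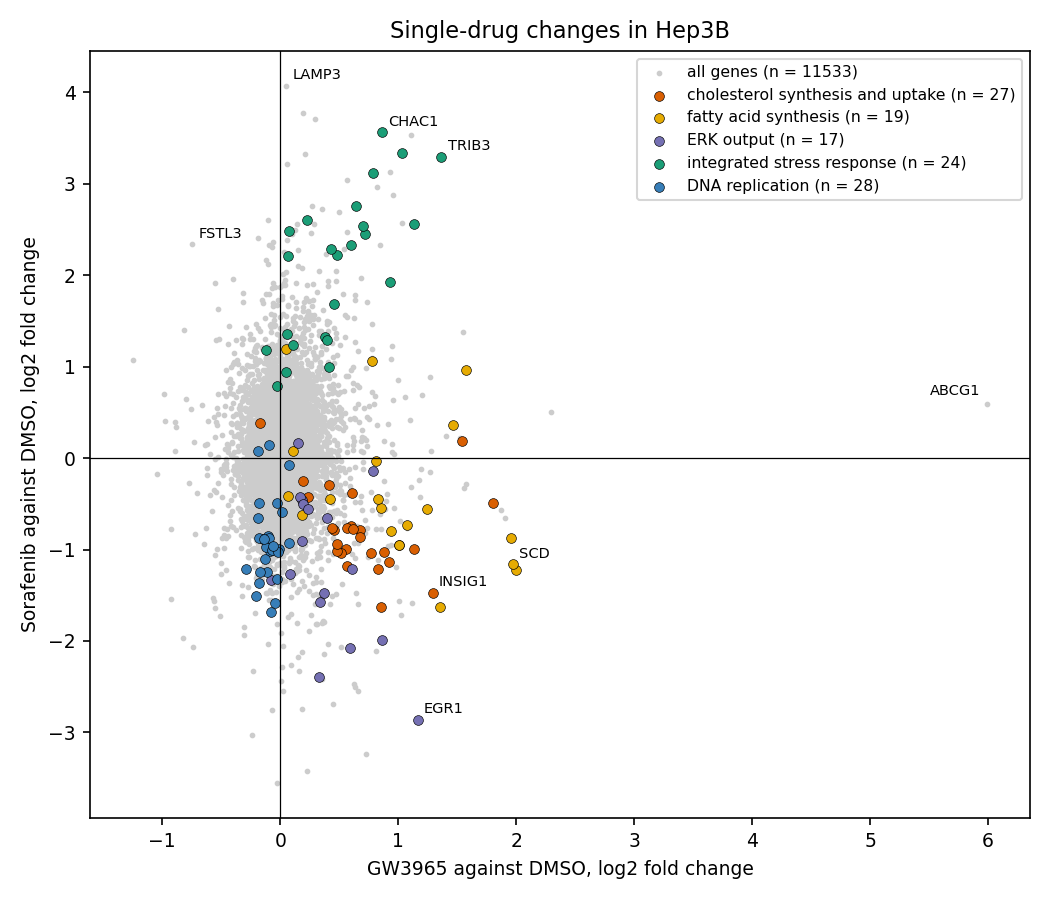
Log2 fold change against DMSO with GW3965 (horizontal axis) and with sorafenib (vertical axis) for the 11533 genes in Hep3B, each point 1 gene, with members of 5 gene lists coloured. Members of the cholesterol, fatty acid and ERK lists lie mostly in the lower right quadrant, where GW3965 raised and sorafenib lowered a gene, and the stress response members lie at the top.

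Genes of cholesterol synthesis and uptake had the highest share of members moved in opposite directions among the 31 lists. Of its 27 members in the tables, 26 had a called direct difference in favour of GW3965 and 1 in favour of sorafenib, with a median of -1.50 beside -0.05 for all genes. By the FDR of the authors' deposited tables, 26 members rose with GW3965 and 0 fell, and 24 fell with sorafenib while 1 rose. The drugs moved 24 of the 27 oppositely. The median log2 fold change of the list was 0.61 with GW3965 and -0.87 with sorafenib. The list was chosen with results of these data known.

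INSIG1, which holds the SREBP escort protein in the endoplasmic reticulum when sterols are plentiful, rose from 34.1 to 83.6 CPM with GW3965 and fell from 36.2 to 13.1 CPM with sorafenib. The 2 starting values are the DMSO level as each table implies it. Its direct difference of -2.76 (95% interval -3.09 to -2.44) was the largest of the list. MVD, a decarboxylase of the mevalonate pathway, differed by -2.13 (standard error 0.17). STARD4, a sterol carrier, differed by -2.06 (0.16). HMGCS1, which makes HMG-CoA, rose from 205 to 363 CPM and fell from 217 to 93.8 CPM, a direct difference of -2.03 (0.13). SREBF2, which encodes the SREBP-2 factor that acts on these genes, moved less, with a direct difference of -0.71 (0.13). LPIN1 and PMVK were outside the opposite pattern and are named for that after their values were seen. LPIN1, a phosphatidate phosphatase, rose with GW3965 and had a log2 fold change of 0.19 with sorafenib (FDR 0.53) in the authors' deposited tables. PMVK, a kinase of the mevalonate pathway, went the other way, with a direct difference of 0.56 (0.15).

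Genes of fatty acid synthesis followed the same direction. Of 19 members above the expression minimum of 21 listed, 16 had a called direct difference in favour of GW3965 and 1 in favour of sorafenib, with a median of -1.28. The authors' deposited tables called 16 higher and 0 lower with GW3965, and 13 lower and 4 higher with sorafenib. FASN, the fatty acid synthase, rose from 729 to 2914 CPM with GW3965 and fell from 770 to 330 CPM with sorafenib, a direct difference of -3.22 (95% interval -3.57 to -2.87). SCD, which introduces the first double bond into fatty acids, rose from 770 to 3015 CPM and fell from 814 to 365 CPM, a direct difference of -3.13. ACSL3, which activates long-chain fatty acids, rose from 301 to 768 CPM and fell from 318 to 103 CPM. SREBF1, the gene of SREBP-1, rose from 84.6 to 329 CPM and fell from 89.4 to 48.7 CPM, a direct difference of -2.84 (-3.06 to -2.61). At each of these 4 genes the drugs stood on opposite sides of DMSO. The drugs moved 12 of the 19 oppositely and raised 3 together, which were ACSS2, GPAM and ME1. ME1, the cytosolic malic enzyme, had a direct difference of 0.29 that did not pass (interval -0.06 to 0.63), and AACS one of -0.03 (-0.28 to 0.22). ACACB, the mitochondrial acetyl-CoA carboxylase, was the member in favour of sorafenib, at 1.14 (0.80 to 1.49). These exceptions were named after their values were seen.

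Among the targets of LXR itself, GW3965 raised 12 of 18 above the minimum, while sorafenib raised 7 and lowered 5, by the FDR of the authors' deposited tables. FASN, SCD and SREBF1 belong to this list and to the fatty acid list, so the counts of the lists are not separate. ABCG1, a sterol exporter, rose from 0.573 to 36.5 CPM with GW3965 and from 0.701 to 1.06 CPM with sorafenib (FDR 0.033 in the authors' deposited table). Its direct difference of -5.40 (95% interval -5.97 to -4.83) was the most negative among the genes reported here. ABCG1 passed the expression minimum only through its level with GW3965. ABCA1, the exporter that loads apolipoprotein A-I, rose from 54.0 to 161 CPM with GW3965 and had 57.1 and 47.0 CPM in the sorafenib comparison (FDR 0.15 in the authors' deposited table). MYLIP, a ubiquitin ligase that removes lipoprotein receptors, rose with GW3965 and fell with sorafenib, with a direct difference of -2.44 (0.20). LPCAT3, which remodels phospholipids, went the same way at -2.57. LPCAT3 was named after its values were seen. Of the 18 targets, 10 had a called direct difference in favour of GW3965 and 3 in favour of sorafenib, with a median of -0.51. MLXIPL, the gene of the glucose-responsive factor ChREBP, was the 1 target that fell with GW3965 and rose with sorafenib, with a direct difference of 0.70 (0.16).

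Promoter sequences from RefSeq (GRCh38.p14) were matched by transcript accession, else by symbol or a unique synonym. They were searched for 6 short motifs on both strands, from 250 bases before to 50 after the first listed start of a gene. The tables were made on hg19, and no coordinate of theirs is used. No motif contains another, and a match is a description of letters only. A promoter was matched for 232 of the 282 genes that rose with GW3965 and fell with sorafenib (82.3%) and for 9542 of all 11533 genes (82.7%). The NF-Y box, CCAAT, was found in 45.7% of the 232 beside 37.1% of all promoters. Without the members of the cholesterol and fatty acid lists it was in 85 of 204 (41.7%). Genes lowered by sorafenib only had it in 41.8%, so the share is not particular to the opposite genes. The sterol response element in the form TCACNCCAC was found in 3.02% beside 1.08%, which is 7 and 103 promoters. Without the members of the cholesterol and fatty acid lists it was in 6 of 204 (2.94%). SREBF2 was the member of these lists among the 7. The ETS site CCGGAAGT was found in 3.02% beside 9.62%. It was in 3.55% for genes that both drugs lowered and in 11.5% for genes lowered by sorafenib only. The low share is therefore not particular to the opposite genes. For the fatty acid list the NF-Y box was in 9 of 17 promoters (52.9%). The count for the cholesterol list is void, since only 20 of its 27 members (74.1%) had a promoter. The strict LXR element with both repeats intact was in 0 promoters of all genes, and the cell cycle homology region TTTGAA was in 9.05% of the 232 beside 9.33% of all. The promoters of 3 genes moved oppositely are shown because they hold these letters. Each gives the 250 bases before the start, 5' to 3' on the strand of the gene, with the match in capitals. INSIG1 is at chr7:155297628-155297877 (+ strand) and holds CCAAT on the opposite strand, 170 bases before the start. HMGCS1 is at chr5:43313413-43313662 (- strand) and holds it at 155 and 100 bases before the start, again on the opposite strand. SREBF2 is at chr22:41832855-41833104 (+ strand) and holds the sterol response element 133 bases before the start.
INSIG1: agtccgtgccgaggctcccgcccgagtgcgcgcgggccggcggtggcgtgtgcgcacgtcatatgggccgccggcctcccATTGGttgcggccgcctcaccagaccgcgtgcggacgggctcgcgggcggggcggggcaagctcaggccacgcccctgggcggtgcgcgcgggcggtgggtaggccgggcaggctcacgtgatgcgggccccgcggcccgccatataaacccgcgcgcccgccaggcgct
HMGCS1: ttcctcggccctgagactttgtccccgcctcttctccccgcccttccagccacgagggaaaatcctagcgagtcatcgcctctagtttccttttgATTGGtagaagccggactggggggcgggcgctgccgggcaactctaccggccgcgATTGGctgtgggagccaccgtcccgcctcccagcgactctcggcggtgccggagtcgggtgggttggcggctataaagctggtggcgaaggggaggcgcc
SREBF2: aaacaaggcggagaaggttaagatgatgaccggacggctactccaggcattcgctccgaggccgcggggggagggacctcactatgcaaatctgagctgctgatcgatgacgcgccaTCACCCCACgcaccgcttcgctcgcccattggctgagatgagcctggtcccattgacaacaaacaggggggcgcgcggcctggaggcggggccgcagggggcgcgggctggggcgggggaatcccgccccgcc

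Outputs of the ERK pathway were the other group that rose with GW3965 and fell with sorafenib. Of 17 members above the minimum, 16 had a called direct difference, all in favour of GW3965, and the median was -1.25. By the FDR of the authors' deposited tables, 10 rose and 0 fell with GW3965, 15 fell and 0 rose with sorafenib, and 9 were moved oppositely. EGR1, an immediate early transcription factor, rose from 15.0 to 33.6 CPM with GW3965 and fell from 16.1 to 2.22 CPM with sorafenib. Its direct difference was -4.02 (95% interval -4.42 to -3.63). DUSP6, the phosphatase that inactivates ERK, rose from 53.6 to 67.5 CPM and fell from 57.0 to 10.8 CPM, a direct difference of -2.73 (standard error 0.14). SPRY4, a feedback inhibitor of the receptor pathway, differed by -2.85 (0.24), and ETV4, an ETS factor induced by ERK, by -2.67 (0.18). CCND1, the gene of cyclin D1, had a log2 fold change of 0.18 with GW3965 in the authors' deposited table (FDR 0.45) and fell from 91.3 to 48.6 CPM with sorafenib. At EGR1, DUSP6, SPRY4 and ETV4 the sorafenib side of the difference was larger than the GW3965 side. Over the list the median log2 fold change was 0.33 with GW3965 and -1.21 with sorafenib. Its promoter count is void, with 10 of 17 members matched.

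Other genes that rose with GW3965 and fell with sorafenib belong to neither group. LFNG, a glycosyltransferase that modifies Notch, rose from 3.52 to 7.15 CPM and fell from 3.87 to 1.18 CPM. GJA1, the gap junction protein connexin 43, rose from 39.2 to 84.7 CPM and fell from 41.3 to 13.8 CPM. FABP1, the liver fatty acid binding protein, rose from 44.3 to 89.0 CPM and fell from 47.1 to 15.9 CPM. These 3 genes with EGR1, FASN, SCD, ACSL3 and INSIG1 are the 8 genes of this orientation that changed at least 2-fold with each drug. CCL20, a chemokine, differed by -3.20 (0.18), and ICAM1, an adhesion molecule, by -1.82 (0.14). Of 15 NF-kB and cytokine genes above the minimum, 8 were called in favour of GW3965 and 1 in favour of sorafenib, with a median of -0.49. The shares over all genes were 25% and 19.2%. By the FDR of the authors' deposited tables, GW3965 raised 2 and lowered 2 of the 15, and sorafenib lowered 9 and raised 1. The drugs moved 2 of them oppositely. ALDOC, an aldolase of glycolysis, rose with GW3965 and fell with sorafenib, with a direct difference of -1.54 (0.16). HK2, a hexokinase, did so too, at -1.19 (0.16). Of 19 glycolysis and glucose transport genes, 13 were called in favour of GW3965 and 0 in favour of sorafenib, with a median of -0.51. GW3965 raised 5 and lowered 1 of the 19 by the authors' FDR, and sorafenib lowered 14 and raised 1. The drugs moved 4 of them oppositely.

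**Figure D2:**
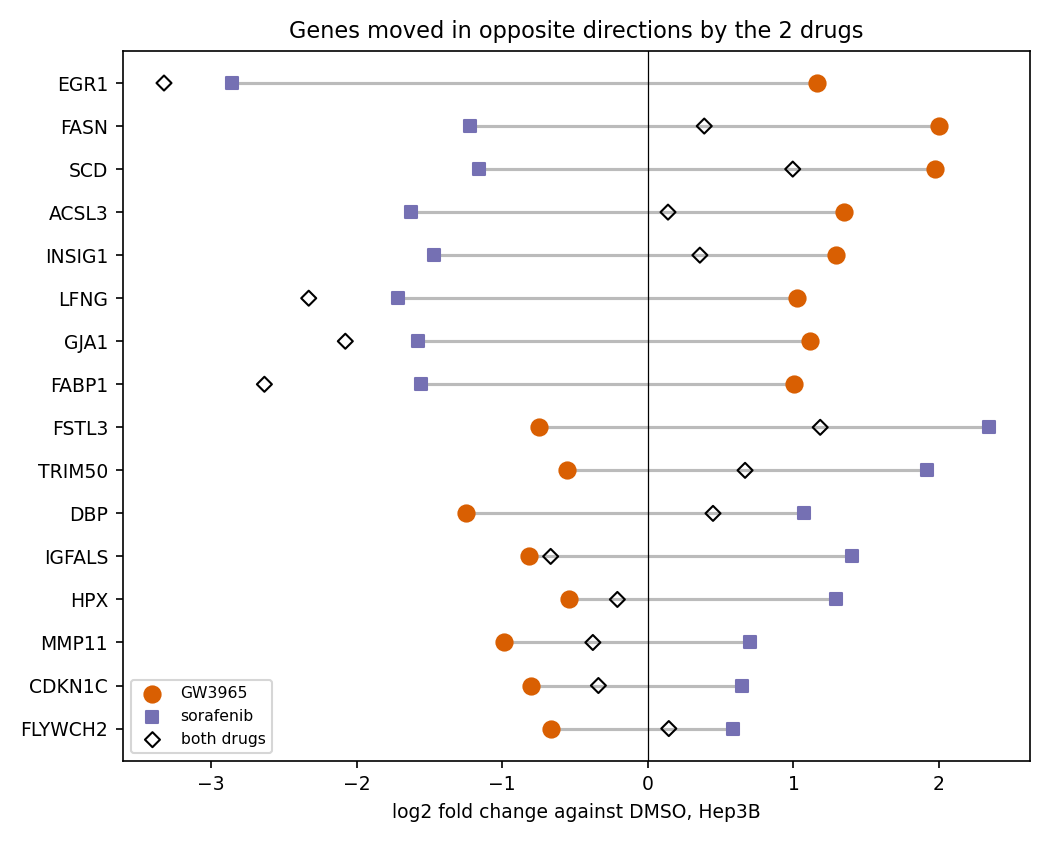
Log2 fold change against DMSO in Hep3B for 16 genes moved in opposite directions, the 8 of each orientation with the largest smaller change, with circles for GW3965, squares for sorafenib and open diamonds for both drugs. Each row is 1 gene, and the line joins the single-drug values, such as 2.00 and -1.22 for FASN.

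The reverse orientation, lower with GW3965 and higher with sorafenib, held 92 genes, with a median log2 fold change of -0.33 with GW3965 and 0.55 with sorafenib, beside 0.34 and -0.59 for the 282 of the first orientation. FSTL3, a secreted protein that binds activin, fell from 22.3 to 13.3 CPM with GW3965 and rose from 23.5 to 119 CPM with sorafenib, a direct difference of 3.09 (95% interval 2.73 to 3.44). DBP, a transcription factor of circadian output, fell from 3.05 to 1.28 CPM and rose from 3.14 to 6.61 CPM, and was the 1 gene of this orientation to change at least 2-fold with each drug. IGFALS, which carries insulin-like growth factors in blood, fell from 2.85 to 1.62 CPM and rose from 2.92 to 7.70 CPM. CDKN1C, an inhibitor of cyclin-dependent kinases, fell from 172 to 98.7 CPM and rose from 182 to 284 CPM. MMP11, a matrix metalloproteinase, differed by 1.68 (0.16), TRIM50, a ubiquitin ligase, by 2.47 (0.26), and FLYWCH2 by 1.25 (0.18). HPX, the plasma protein hemopexin, fell from 26.9 to 18.4 CPM and rose from 28.3 to 69.3 CPM. FGG, the fibrinogen gamma chain, went the same way, with a direct difference of 1.69 (0.21). DGAT2, which completes triglycerides, fell with GW3965 and rose with sorafenib, with a direct difference of 2.35 (2.01 to 2.69). Of these 92 genes, 71 had a promoter (77.2%), so the motif count is void.

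Secreted products of hepatocytes did not share 1 direction. Of 19 members above the minimum, 8 were called in favour of sorafenib and 6 in favour of GW3965, with a median of -0.03. The shares over all genes were 19.2% and 25%. APOC3, a brake on lipoprotein clearance, had a direct difference of 2.03 (0.24) with a log2 fold change of -0.32 with GW3965 (FDR 0.17) in the authors' deposited table. APOB, the structural protein of liver lipoproteins, was at the other end with -1.40 (0.26). The 11 hepatocyte markers were all present, with mean log2 CPM of 5.05 for FGB to 13.1 for ALB. Endothelial markers were absent, with 0 of 5 above the minimum and mean log2 CPM of -2.26 to -1.66. Of 8 blood cell markers, LYZ and CD68 passed the minimum, at 5.20 and 3.58, while the defining markers PTPRC (-2.06), CD3E (-2.27) and CD163 (-2.27) lay at the floor of the tables. LYZ, the lysozyme gene, rose from 41.1 to 58.7 CPM with GW3965 and fell from 43.6 to 10.4 CPM with sorafenib. Of 8 fibroblast and stellate markers, 3 passed, COL1A2 at 1.87, LUM at 2.77 and PDGFRB at 2.86.

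Genes of the integrated stress response stood higher with sorafenib than with GW3965, and 16 of them rose with both drugs. All 24 members above the minimum had a called direct difference in favour of sorafenib, from 0.58 to 2.71, with a median of 1.73. The authors' deposited tables called 16 of the 24 higher with GW3965 and 24 with sorafenib, with median log2 fold changes of 0.44 and 2.25. CHAC1, an enzyme that degrades glutathione, rose from 7.55 to 13.7 CPM with GW3965 and from 7.85 to 92.9 CPM with sorafenib, a direct difference of 2.71 (95% interval 2.38 to 3.03). TRIB3, a pseudokinase induced by ATF4, rose from 31.8 to 82.0 CPM and from 33.5 to 328 CPM, a direct difference of 1.93 (1.62 to 2.24). ATF3, a stress-induced transcription factor, rose from 8.50 to 14.7 CPM and from 8.88 to 77.1 CPM. ATF4 itself rose from 113 to 147 CPM and from 119 to 298 CPM. ASNS, asparagine synthetase, rose from 43.2 to 71.1 CPM and from 45.5 to 248 CPM. DDIT3, the gene of the death-related factor CHOP, had 8.99 CPM in DMSO and 9.46 CPM with GW3965 (FDR 1 in the authors' deposited table) and rose from 9.32 to 51.9 CPM with sorafenib. CEBPB, a transcription factor that pairs with ATF4, differed by 2.37 (0.14). The list was chosen with results of these data known, and ATF4 and ASNS were named after their values were seen.

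By the FDR of the authors' deposited tables, 10 of 13 amino acid transporters rose and 0 fell with GW3965, while 9 rose and 1 fell with sorafenib. Of 20 aminoacyl-tRNA synthetases, 10 rose and 0 fell with GW3965, while 12 rose and 3 fell with sorafenib. Of the 13 transporters, 8 were called in favour of sorafenib and 4 in favour of GW3965, with a median of 0.74, and 9 rose with both drugs. SLC7A11, the cystine importer, rose from 12.2 to 26.7 CPM with GW3965 and from 12.7 to 74.6 CPM with sorafenib. SLC6A9, a glycine transporter, differed by 2.20 (0.23), and SLC3A2, the heavy chain that pairs with SLC7A11, by 1.85 (0.14). SLC6A6, the taurine transporter, was the 1 member that fell with sorafenib, at a direct difference of -2.57 (0.15), with 51.0 CPM in DMSO and 8.74 CPM with sorafenib. Of the 20 synthetases, 11 were called in favour of sorafenib and 2 in favour of GW3965, with a median of 0.42, and 10 rose with both drugs. The largest differences were 1.3 (0.12) at SARS, 1.25 (0.12) at WARS and 1.19 (0.12) at AARS, the enzymes that charge the tRNAs of serine, tryptophan and alanine. The amino acid response element in the form TGATGNAAN was in 6 of the 16 synthetase promoters (37.5%, with 80% of the list matched) beside 1.60% of all promoters. The counts for the genes raised by both drugs (193 of 254 matched, 76.0%) and for the stress response (19 of 24, 79.2%) are void. The promoter of ASNS is shown as an example that holds the element, marked in capitals in the 250 bases before the start. It is at chr7:97872409-97872658 (- strand), with the element on the strand of the gene at 68 bases before the start.
ASNS: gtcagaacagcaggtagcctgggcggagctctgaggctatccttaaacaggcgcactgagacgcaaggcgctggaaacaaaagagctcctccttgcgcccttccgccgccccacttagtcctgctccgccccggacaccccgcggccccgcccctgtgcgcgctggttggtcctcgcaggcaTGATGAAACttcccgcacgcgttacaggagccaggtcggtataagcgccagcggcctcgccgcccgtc

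Over all 254 genes that both drugs raised, the median log2 fold change was 0.37 with GW3965 and 0.71 with sorafenib. The direct difference was called for 123 of them in favour of sorafenib and for 6 in favour of GW3965. For the other 125 it was not called, which does not show that the drugs raised them equally. STC2, a secreted glycoprotein, rose from 5.76 to 11.8 CPM with GW3965 and from 5.99 to 60.6 CPM with sorafenib. NEBL, an actin-binding protein, rose from 4.87 to 10.5 CPM and from 5.02 to 58.2 CPM, a direct difference of 2.43 (0.26). MAP1B, a microtubule-associated protein, differed by 1.54 (0.30), and AMZ1, a metallopeptidase, by 1.92 (0.25). GLT1D1 rose with both, with a direct difference of 0.28 (interval -0.22 to 0.78) that was not called. GPAM, which starts glycerolipid synthesis, was raised more by GW3965, from 19.7 to 58.9 CPM against 20.8 to 40.4 CPM with sorafenib, a direct difference of -0.62 (-1.02 to -0.21). MID1IP1, a protein that activates acetyl-CoA carboxylase, was also raised more by GW3965, at -0.39 (-0.65 to -0.13). ABCG2, a drug exporter, rose from 2.35 to 5.40 CPM and from 2.49 to 4.00 CPM, and its direct difference of -0.52 did not pass (adjusted p = 0.063). MID1IP1 and ABCG2 were named after their values were seen.

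**Figure D3:**
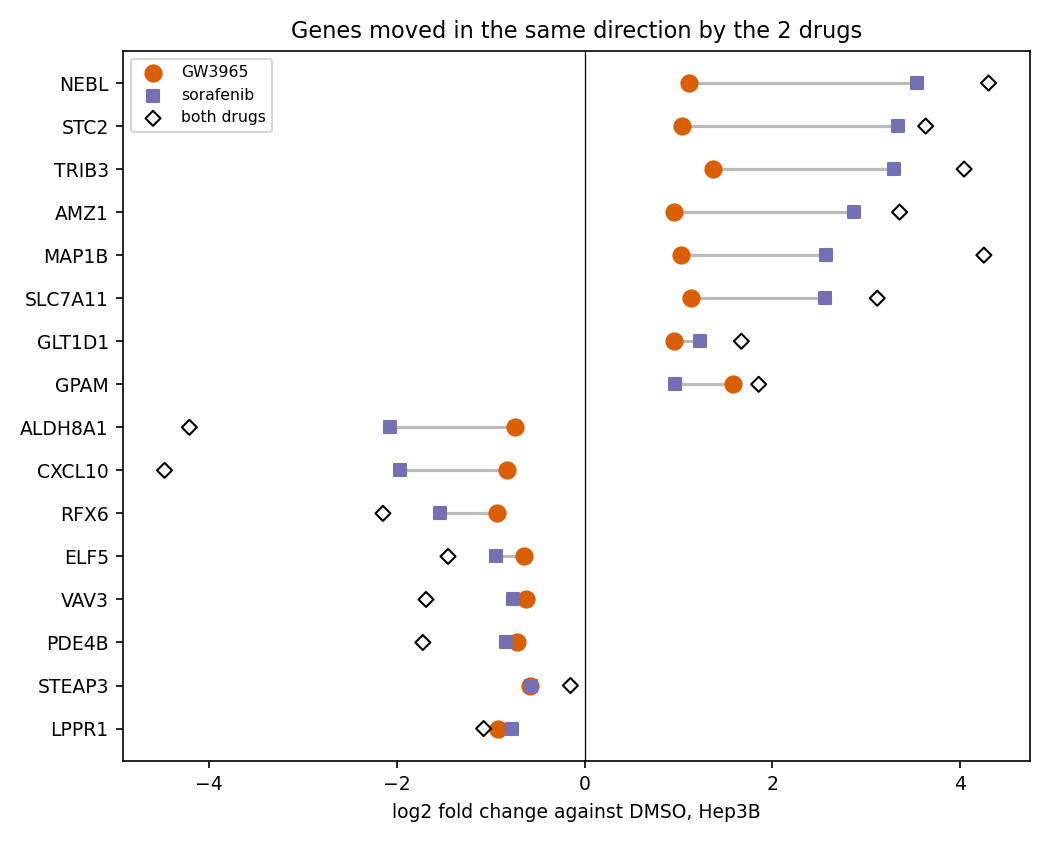
Log2 fold change against DMSO in Hep3B for 16 genes moved in the same direction, the 8 of each direction with the largest smaller change, with circles for GW3965, squares for sorafenib and open diamonds for both drugs. Of the 8 genes that fell, 6 have a direct difference that was not called, and at STEAP3 the single-drug markers coincide.

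Among the 165 genes that both drugs lowered, the median log2 fold change was -0.24 with GW3965 and -0.67 with sorafenib. The direct difference was called for 101 of them, each lower with sorafenib, and not for 64. CXCL10, a chemokine, fell from 5.31 to 3.00 CPM with GW3965 and from 5.78 to 1.48 CPM with sorafenib, a direct difference of -1.15 (95% interval -1.80 to -0.49). ALDH8A1, an aldehyde dehydrogenase, fell from 3.47 to 2.08 CPM and from 3.79 to 0.905 CPM, a difference of -1.33 (-1.97 to -0.69). RFX6, a transcription factor, fell from 5.62 to 2.95 CPM and from 6.09 to 2.09 CPM, and its difference of -0.61 did not pass (adjusted p = 0.054). PDE4B, a phosphodiesterase of cyclic AMP, fell from 2.73 to 1.65 CPM and from 2.93 to 1.64 CPM, a difference of -0.11 (-0.55 to 0.32). STEAP3, an iron reductase, fell from 10.9 to 7.28 CPM and from 11.6 to 7.78 CPM with a difference whose interval ran from -0.30 to 0.31. ELF5, VAV3 and LPPR1 fell with both drugs and had intervals that include 0. No gene of this class changed at least 2-fold with each drug. The NF-Y box was in 70 of its 141 promoters (49.6%) beside 37.1% of all promoters and 41.8% for genes lowered by sorafenib only.

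Genes of DNA replication were lower with sorafenib than with GW3965. Of 28 members, 25 had a called direct difference in favour of GW3965 and 0 in favour of sorafenib, with a median of -0.91. In the tables the authors deposited, 25 fell with sorafenib and 8 with GW3965, and 7 fell with both. The median log2 fold change was -0.10 with GW3965 and -0.96 with sorafenib. RRM2, a subunit of the enzyme that makes deoxynucleotides, had 81.5 CPM in DMSO and 77.1 CPM with GW3965 (FDR 0.57 in the authors' deposited table), and fell from 86.4 to 26.9 CPM with sorafenib. CCNE1, the gene of cyclin E1, fell from 24.6 to 21.3 CPM and from 26.3 to 9.21 CPM, a direct difference of -1.3 (0.14). UHRF1, which reads newly replicated DNA, differed by -1.54 (0.17). Mitotic genes went the same way, with 21 of 24 called in favour of GW3965, 0 in favour of sorafenib, and a median of -0.37. MKI67, the proliferation marker, had 95.6 and 102 CPM in the GW3965 comparison (FDR 0.94 in the authors' deposited table) and fell from 101 to 40.3 CPM with sorafenib. The NF-Y box was in 16 of 25 promoters of the replication list (64%).

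Several of the largest direct differences belonged to genes that passed the authors' FDR with sorafenib and not with GW3965. LAMP3, a membrane protein of lysosomes, had 0.857 CPM in DMSO and 0.886 CPM with GW3965, and rose from 0.798 to 13.4 CPM with sorafenib. Its direct difference of 4.02 (95% interval 3.38 to 4.66) was the highest among the genes reported here. LAMP3, and likewise MEF2B, SYTL1 and SOCS2 below, passed the expression minimum only through the level with sorafenib. HKDC1, a hexokinase, rose from 7.59 to 104 CPM with sorafenib, and MEF2B, a transcription factor, from 1.62 to 21.2 CPM. GPR133, an adhesion receptor, differed by 3.15 (0.20), AKNA by 3.11 (0.20), SYTL1 by 2.71 (0.23), PTPRH, a receptor phosphatase, by 2.59 (0.26), and SOCS2, a suppressor of cytokine signalling, by 2.48 (0.28). In the other direction, SLC6A14, an amino acid transporter, fell from 29 to 2.71 CPM with sorafenib and had 27.1 and 31.8 CPM in the GW3965 comparison (FDR 0.35 in the authors' deposited table). CGA, the alpha chain of glycoprotein hormones, fell from 9.51 to 0.811 CPM with sorafenib and had 8.75 and 8.60 CPM in the GW3965 comparison. CHODL, a membrane lectin, rose with GW3965 from 18.6 to 30.7 CPM and fell with sorafenib from 19.9 to 2.10 CPM. SYN3, a synapsin, and C1orf64 did likewise, with direct differences of -3.14 (0.22) and -3.13 (0.30). PDGFRA, a receptor kinase, fell with sorafenib and differed by -1.92 (0.13).

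**Figure D4:**
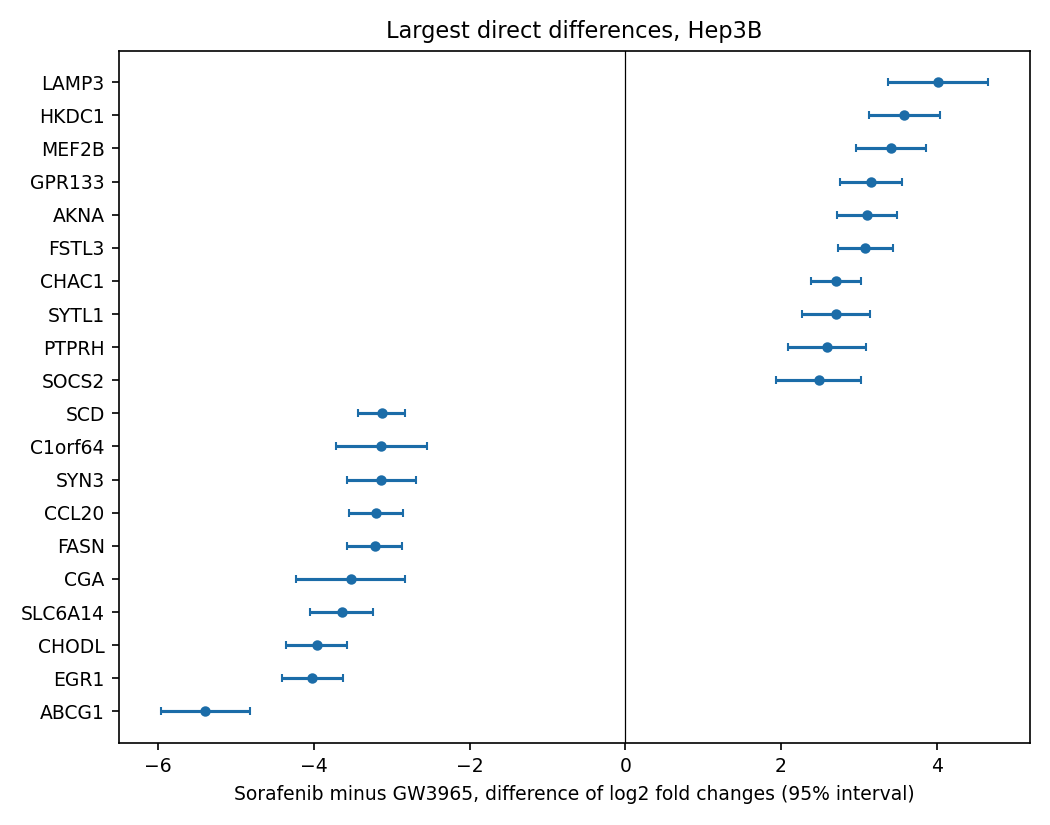
The 10 highest and 10 lowest called direct differences among the genes reported here, as sorafenib minus GW3965 on the log2 scale, with 95% intervals from the approximate error. They run from -5.40 at ABCG1 to 4.02 at LAMP3. Only called genes were taken, so that the intervals leave out 0 was fixed in advance.

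Over all genes the direct difference was called in favour of sorafenib for 19.2% and in favour of GW3965 for 25%. The list counts below stand beside these shares, and several are near them. Of 20 members of the list of chaperones and the unfolded protein response, 6 were called in favour of sorafenib and 4 in favour of GW3965. Their median was -0.06, and HERPUD1, a factor of protein disposal at the endoplasmic reticulum, led with 1.17 (0.13). Of 11 interferon-stimulated genes above the minimum, 5 were called in favour of sorafenib, led by IRF1 at 1.09 (0.17), and 1 was called in favour of GW3965. Of 13 targets of YAP and TEAD, 4 were called in favour of sorafenib and 0 in favour of GW3965, with a median of 0.24, led by JUB at 1.26 (0.13). Of 16 circadian output genes, 6 were called in favour of sorafenib and 2 in favour of GW3965, with a median of 0.21. Of 20 lysosome and autophagy genes, 8 were called in favour of sorafenib and 5 in favour of GW3965, with a median of 0.09. NRF2 targets were divided equally, 6 each way of 17. Transcript length varied with the responses over 11100 genes, with a Spearman rho of 0.25 for GW3965, -0.08 for sorafenib and -0.15 for the direct difference, and the part of length in the results was not tested. The median length was 2568 bases for the cholesterol list, 3500.5 for the fatty acid list, 2188 for the stress response and 3049 for all genes.

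**Figure D5:**
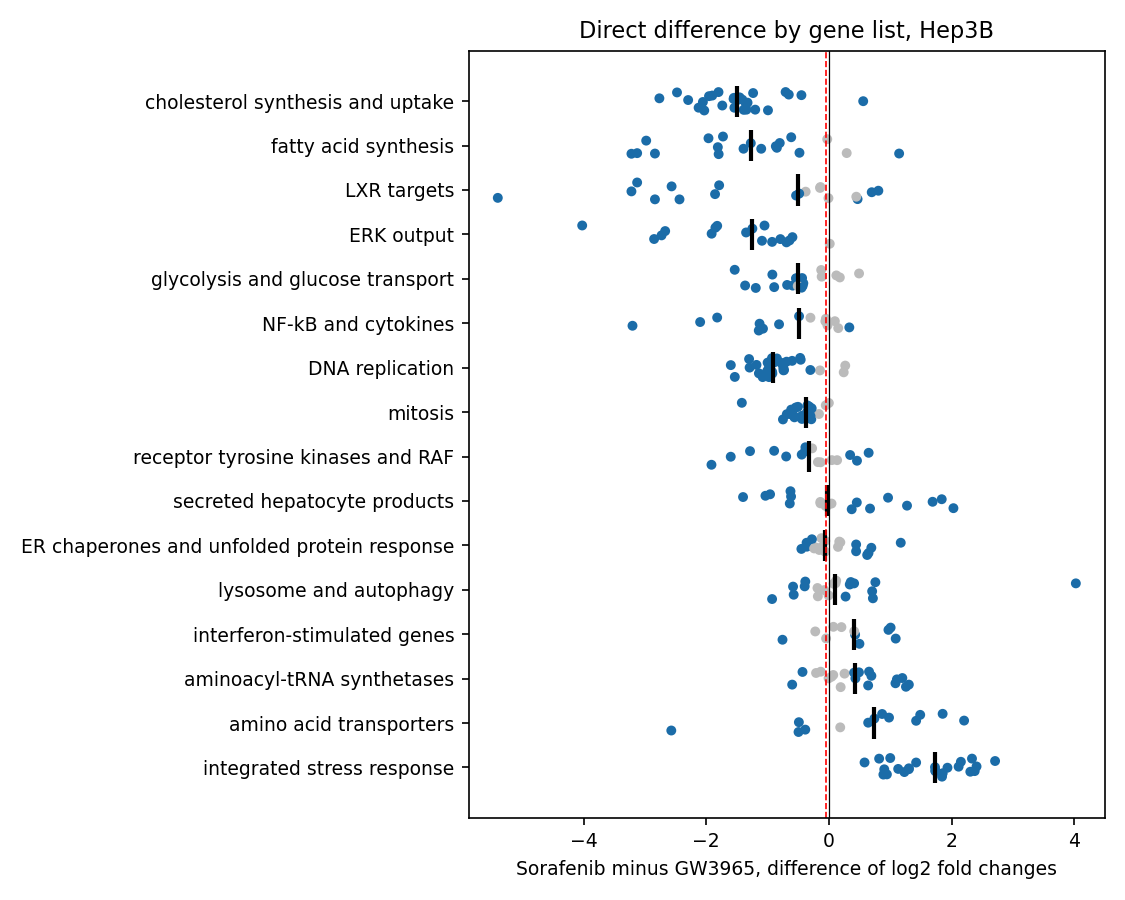
Direct difference, sorafenib minus GW3965 on the log2 scale, for the members of 16 gene lists in Hep3B, with blue points for genes called at an adjusted p under 0.05, grey points for the others, black bars for list medians and a dashed line for the median of all genes. The medians run from -1.50 for the cholesterol list to 1.73 for the integrated stress response.

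With both drugs together, the cholesterol list had a median log2 fold change of -0.21 against DMSO and the ERK list one of -0.78, each between its single-drug medians. In the authors' deposited table for both drugs, 4110 genes were higher than in DMSO (35.6%) and 4180 lower (36.2%), together 71.9%. FASN was at 1005 CPM with both drugs, SCD at 1619 CPM and INSIG1 at 46.1 CPM. EGR1 was at 1.55 CPM, DUSP6 at 9.62 CPM and FABP1 at 7.5 CPM, beside 2.22, 10.8 and 15.9 CPM with sorafenib alone. Both drugs minus sorafenib asks what GW3965 added on top of sorafenib, and was called higher for 1909 of all genes (16.6%) and lower for 1708 (14.8%). Of the 27 cholesterol genes 20 were called higher and 2 lower, with a median of 0.83, and of the 19 fatty acid genes 11 were higher and 1 lower. Of the 17 ERK outputs 4 were higher and 1 lower, with a median of 0.03, and of the 24 stress response genes 10 were higher and 2 lower. SREBF1 was raised by 2.18 on top of sorafenib, SCD by 2.15 and FASN by 1.61, while EGR1 had -0.46 (adjusted p = 0.13) and DUSP6 -0.15 (adjusted p = 0.54). Among the genes raised by GW3965 and lowered by sorafenib, 85 of 282 were higher on top of sorafenib and 26 lower. The sorafenib libraries that chose this class also enter that difference. IGFALS fell by 2.07 on the log2 scale and HPX by 1.5 on top of sorafenib. Both belong to the reverse orientation, chosen in part for high levels in the same sorafenib libraries, so a fall is favoured. Both drugs minus GW3965, the reverse question, was called higher for 3522 of all genes (30.5%) and lower for 3848 (33.4%). Among the 282 it was called higher for 2 and lower for 252. That class was chosen in part for high levels in the GW3965 libraries, which are subtracted here, so a lower result is favoured.

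In Huh7, whose libraries had no part in choosing the genes, most of the called differences in these classes had the opposite sign under the labels as written. The labelled sorafenib minus labelled GW3965 difference was called higher for 692 of all genes (6%) and lower for 682 (5.91%). Of the 282 genes raised by GW3965 and lowered by sorafenib in Hep3B, 103 were called higher and 6 lower, and of the 92 in the reverse orientation 0 were higher and 49 lower. Per the authors' deposited tables ABCG1 had a log2 fold change of 0.75 in the Huh7 libraries labelled GW3965 and 3.82 in those labelled sorafenib, which goes against the labels, since ABCG1 is a standard LXR target. DUSP6 in the authors' deposited tables had -1.70 in the libraries labelled GW3965 and -0.02 in those labelled sorafenib. Directions in Huh7 are therefore given by label only. The direct differences of the lines were called different for 4792 genes (41.6%) under the labels as written, and for 1290 (11.2%) with the sign of the Huh7 difference turned, so most of that share rests on the direction the labels give.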

How the data were processed

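Poly-A RNA-seq libraries of Hep3B and Huh7 were grouped by their titles. Per the submitters' processing notes, edgeR was used (version not stated) and the builds were hg19 and GRCh37. Aligner, counter, normalization and type of test: not given in the sources used here. There are 6 tables that the authors deposited and that, per the file headers, are each of a drug group against DMSO, with mean expression on the log2 CPM scale and a log2 fold change per transcript. The authors deposited a p-value and its FDR beside these. The tables list 32321 transcripts, and the authors marked 1 of them per gene symbol. The mark and the number of nonzero libraries are plain whole numbers. Depth per library is unknown, and no value of a single library was used.

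Adjusting the authors' deposited p-values over all rows gave their FDR to within 2.5e-15. The DMSO levels implied by the GW3965 and sorafenib tables differed by a median of -0.080 on the log2 scale (SD 0.0094 over genes). The standard error of each deposited fold change was recovered as the ratio of its absolute value to the 2-sided normal quantile of its p-value. Genes were split into 20 bins of mean expression. Where p exceeded 0.5 the median error of the gene's own bin was used, and that median was also the lower limit of the error. The squared errors of the pair of tables were summed. The DMSO level cancels in the difference but its error is counted, so the errors tend to be too large. The calculation was tested on simulated counts. It called 22%, 94% and 100% of genes with true log2 differences of 0.5, 1 and 2, and 0 of 11333 unchanged genes. The simulation used t-test p-values on log2 CPM with a fixed dispersion and an assumed depth. The authors' deposited p-values were not part of it. Python 3.11.15, numpy 2.4.6, pandas 2.3.3 and scipy 1.17.1 were used.

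The genes, the 31 gene lists and the tests were chosen with earlier results of these data known. Named genes are the 10 highest and 10 lowest called direct differences, 8 genes of each opposite or alike class with the largest smaller change, up to 4 members of each list described, and 16 further genes fixed by name. Some genes taken by these rules are not reported here. Older symbols in the tables were kept, such as JUB and AARS. Alternatives covered the threshold, the error, the expression minimum, centring, the transcript of a gene and the size of the difference.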

Additional observations from a re-analysis of the deposited data

Results flagged for a closer look

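Of the 16 genes named in every case, 13 had a direct difference of opposite sign in the 2 lines, and the difference between the lines passed the approximate test at an adjusted p under 0.05. For Huh7 the value is labelled sorafenib minus labelled GW3965, a direction that ABCG1 and DUSP6 in that line go against. The difference of Hep3B minus Huh7 was -8.47 at ABCG1, -6.23 at EGR1, -4.53 at SREBF1, -4.50 at FASN, -4.41 at DUSP6, -3.70 at SCD, -3.63 at INSIG1, -3.34 at MYLIP, -2.87 at ABCA1, -1.79 at MKI67 and -1.24 at CCND1. It was 2.87 at ATF3 and 3.45 at DDIT3. At ABCG1 the direct difference was -5.40 in Hep3B and 3.07 in Huh7, and at DDIT3 2.40 and -1.05. At ATF3, MKI67 and CCND1 the Huh7 difference was itself not called, at -0.54, 0.37 and 0.15 (adjusted p of the approximate test 0.10, 0.24 and 0.54). These 13 were picked for opposite signs in the 2 lines, so nothing is read from the agreement that turning the sign gives. With the sign of the Huh7 difference turned, a reading added after the data were seen, all 13 would share their sign with Hep3B by construction. The difference between the lines would then be -2.33 at ABCG1, -1.82 at EGR1, -1.94 at FASN and 1.35 at DDIT3, and would pass at 13 of the 13. Over all genes the test called 4792 of 11533 (41.6%) under the labels as written and 1290 (11.2%) with the sign turned. No sample was moved to another group.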

How the results depend on the processing

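No paired analysis was possible because the tables hold no values of single libraries, so the replicate block and leaving out each replicate were not run, and outlying libraries could not be looked for. At an FDR threshold of 0.01 the opposite genes were 242 and the genes moved alike 245, with 48 lower with GW3965 and higher with sorafenib, 164 raised by both and 81 lowered by both. With a called difference of at least 2-fold required, 684 genes remained, 362 higher with sorafenib and 322 higher with GW3965. The other 37 counts under alternatives were within 1.5 times the main count. Among them, the opposite and alike counts stayed at 374 and 419 with each table centred, which kept the FDR. The opposite count also stayed at 374 with the direct difference required as well. These were all but fixed in advance, and nothing is read from them. The count of direct differences ran from 3750 at a threshold of 0.01 to 6766 with errors correlated at 0.5. With the sign of the Huh7 difference turned, an alternative added after seeing the data, the lines differed at 1290 genes against 4792. With the median difference subtracted, 2554 genes were higher with sorafenib and 2485 higher with GW3965, against 2219 and 2888. Over up to 7 alternatives for 153 named genes, 1022 direct differences kept their sign and their side of the threshold, 7 lost the call and 3 gained it. AACS changed sign, to 0.016, when the median was subtracted. Calls at ANKRD1, CD68, ERN1, ONECUT1 and WWC1 were lost at 0.01, and those at ERN1 and ONECUT1 also with no minimum of expression.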

Other observations

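Several lists were also compared between both drugs and sorafenib alone. Of the 20 genes of chaperones and the unfolded protein response, 14 were called higher with both drugs than with sorafenib and 0 lower, with a median of 0.61 on the log2 scale, beside 16.6% and 14.8% of all genes. HERPUD1 was at 62.7 CPM with sorafenib and 143 CPM with both drugs. Of 16 circadian output genes, 8 were called higher and 0 lower. Secreted hepatocyte products went the other way, with 0 of 19 called higher and 11 lower and a median of -0.56, and APOC3 was at 24.9 CPM with sorafenib and 9.1 CPM with both drugs. Of 15 NF-kB and cytokine genes, 0 were called higher and 10 lower, and CCL20 was at 4.81 CPM with sorafenib and 1.75 CPM with both drugs. These lists were picked out after their values were seen, and no explanation was tested.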
